A study of Homo sapiens with 9 samples.

Results

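HepG2 cells, an established human hepatoma line, were exposed to GW7647 for 24 h or for 6 h, and the difference between those times is described over all genes measured. GW7647 is a synthetic agonist of PPARα, the fatty acid receptor of liver cells, and was given at 100 nM. The members are the 6 arrays whose titles carry GW7647 and one of these times, 3 per time, of 9 arrays in the series. The other 3 arrays are DMSO vehicle cultures, with no duration stated in the labels. They enter the estimate of spread and are quoted as levels, but not the contrast. All 9 came from the same line in medium without phenol red, and the cells were split the day before treatment. No vehicle culture is labelled by time, so exposure to GW7647 and time in culture after splitting cannot be told apart. Replicates are numbered without a statement that they are separate cultures. Each p-value thus rests on the spread among these samples alone, and that spread may be technical. The arrays are Affymetrix chips read as log2 signal after RMA, and each gene stands for its probe set with the highest mean signal. Signals are compared within a gene only.

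PPARα is a nuclear receptor that pairs with RXR, binds fatty acids and fibrate-like drugs, and raises transcription of genes for fatty acid uptake, oxidation and storage in liver. Hepatoma cells also carry programmes that follow the state of the culture. The factor ATF4 is made in greater amounts when amino acids run short or the endoplasmic reticulum is stressed, and drives amino acid synthesis, uptake and tRNA charging. The HIF factors are stabilised when oxygen is low and drive genes for oxygen supply and anaerobic metabolism. Gene lists for these programmes and for other liver functions, 36 in all with 870 measured members, are described below by how many members passed the test.

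From 6 h to 24 h, 1826 of 19775 genes rose and 903 fell in limma's moderated test at a Benjamini-Hochberg adjusted p under 0.05. These are 9.23% and 4.57% of the genes, 13.8% together, and every count of list members from this fit is set beside these shares. Counts from other fits have other totals over all genes. With 1 array left out, 989 to 2061 genes rose and 499 to 1021 fell. With shared probes left out, 1142 of 17098 rose and 632 fell. The lists were chosen with earlier results of these data known, so a share above that of all genes is no independent test of a list. The changes were mostly small. The median size was 0.33 on the log2 scale among genes that rose and 0.31 among those that fell, while 28 genes rose and 9 fell by more than 2-fold. The median standard error was 0.07, and the median change over all genes was -0.0097. With each array centred on its median, the split was 1913 higher and 757 lower. After another quantile normalization it was 1458 and 1210, so the share of higher calls moved from 66.9% to 71.6% and 54.6%. Without 6 h replicate 2 the calls numbered 1519, and without 6 h replicate 1 they numbered 1739.

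Correlations between arrays over genes were 0.9986 to 0.9988 within 6 h, 0.9980 to 0.9984 within 24 h and 0.9953 to 0.9971 between the times. Single arrays stood apart in particular lists. The 6 h replicate 3 was the highest of the 6 h arrays in 30 of 36 hypoxia genes and 24 of 27 glycolysis genes, against 31.5% of all genes, and counts for those lists are given with and without it. The log2 difference between 3' and 5' control probe sets ran from 0.27 to 0.30 at 6 h and 0.25 to 0.40 at 24 h for actin. For GAPDH it ran from 0.05 to 0.07 and from 0.018 to 0.022, and the part of this difference in the results was not tested. Hepatocyte markers gave a mean signal of 12.5 at 6 h and 12.4 at 24 h. Of 14 such markers none rose, while TTR, the thyroxine carrier transthyretin, and FGB, the fibrinogen beta chain, fell. ALB, albumin, was at -0.02 (adjusted p = 0.86) and at 0.31 (adjusted p = 0.0257) when shared probes were left out. Of 27 markers of other liver cell types, 18 had a mean signal under 6.5. Their mean over the list was 6.35 to 6.38 at 6 h and 6.34 to 6.38 at 24 h. Of these 27, ACTA2, smooth muscle actin, and CD14, an endotoxin co-receptor, rose by 0.39 and 0.28 on the log2 scale and none fell, while 1 fell without 24 h replicate 1 or vehicle replicate 2. The ACTA2 value was 0.13 (adjusted p = 0.108) as the mean of its probe sets. In RNA from whole cultures, fewer cells that express a gene and less RNA per cell cannot be told apart.

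**Figure D1:**
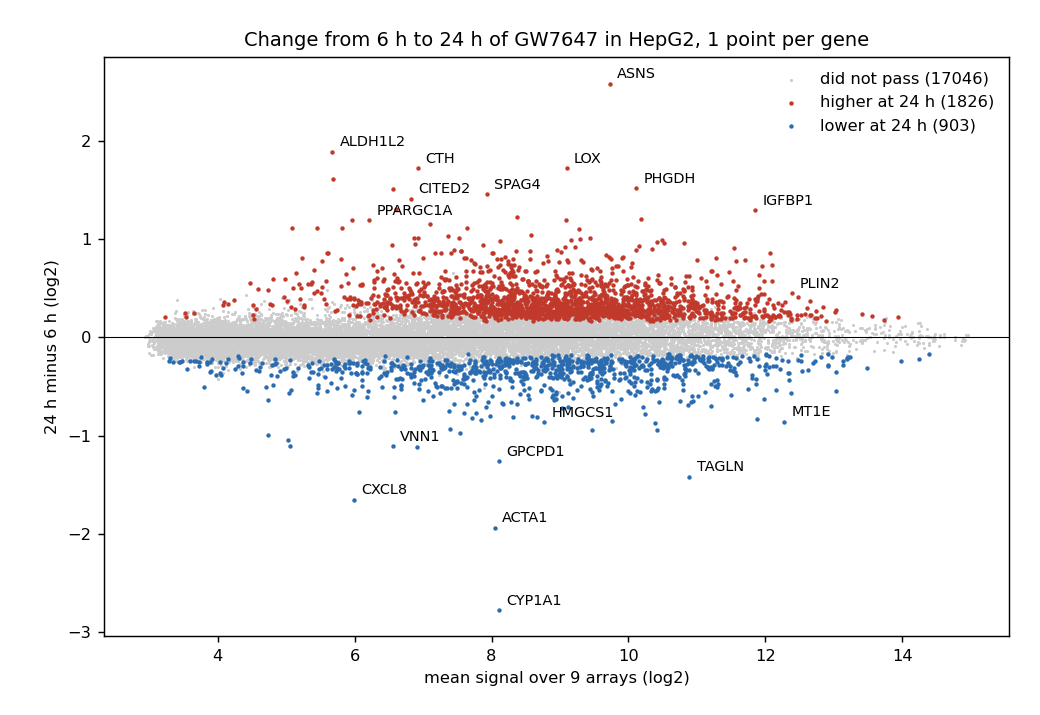
Log2 change from 6 h to 24 h (vertical axis) against mean log2 signal over the 9 arrays (horizontal axis), with 1 point per gene for 19775 genes. Red points are the 1826 genes that rose, blue points the 903 that fell and grey points the rest; ASNS lies at the top at 2.59 and CYP1A1 at the bottom at -2.78.

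The 15 largest rises with arrays entirely apart ran from ASNS at 2.59 to YPEL2 at 1.20 on the log2 scale, and the 15 largest falls from CYP1A1 at -2.78 to UGT2B28 at -0.87. Over all genes, the 24 h arrays lay entirely above the 6 h arrays in 19.2% and entirely below in 13.8%. Among the rises, ASNS, ALDH1L2, CTH, PHGDH and HAL belong to amino acid metabolism, and LOX, CITED2, IGFBP1 and BNIP3L to the hypoxia list. SPAG4, a nuclear envelope protein of the SUN family, read 7.28, 6.99 and 8.01 at 6 h and 8.86, 8.87 and 8.94 at 24 h. The 6 h replicate 3 lay nearest to the 24 h arrays, and the times did not overlap. SPAG4 was 2.75-fold higher at 24 h (95% interval 2.05 to 3.70; log2 change 1.46 ± 0.19, SE; adjusted p = 6.35e-04). ERBB3, a receptor tyrosine kinase that pairs with ERBB2, read 9.69, 9.66 and 9.70 at 6 h and 10.86, 10.97 and 10.83 at 24 h, a change of 1.20 ± 0.06 on the log2 scale. Its 6 h arrays were tightly placed and below the vehicle arrays, which read 10.01, 9.87 and 9.99.

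Other genes among the 15 largest rises were LINC00115, a long non-coding RNA, at 1.62, PPP2R2C, a regulatory subunit of protein phosphatase 2A, at 1.51, and YPEL2, of the yippee family, at 1.20. HOXD1, a homeobox factor, changed by 1.22 on a probe set that shares probes with other transcripts, while its other probe set, near the floor of the array, gave -0.17 (adjusted p = 0.280). Dimmer probe sets of PPP2R2C gave -0.14 to 0.20, and those of YPEL2 gave 0.01 and 0.25. Of the largest falls outside the lists, GPCPD1, which cleaves glycerophosphocholine, read 9.12, 9.07 and 8.89 at 6 h and 7.69, 7.70 and 7.92 at 24 h. All 3 of its probe sets lay lower at 24 h, at -1.26, -1.20 and -1.12. IL17B, a cytokine of the IL-17 family, changed by -1.12, MAB21L3 by -1.11 and ARRDC3, an arrestin-related adaptor, by -0.99. MAB21L3 and ARRDC3 were dim, with mean signals of 4.67 and 4.42 at 24 h. AKAP12, a scaffold for protein kinase A, changed by -0.95 and GLIPR1 by -0.94, each on a shared probe set. MALAT1, a nuclear long non-coding RNA, read 9.81, 9.94 and 9.66 at 6 h and 8.53, 8.49 and 9.55 at 24 h. The third of the 24 h arrays lay next to the 6 h arrays while the other two lay far below them. The change was -0.94 ± 0.22 with an adjusted p of 0.0165, and the call was lost when 6 h replicate 1 or 2 or 24 h replicate 1 or 2 was left out (adjusted p = 0.0551 to 0.0742).

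**Figure D2:**
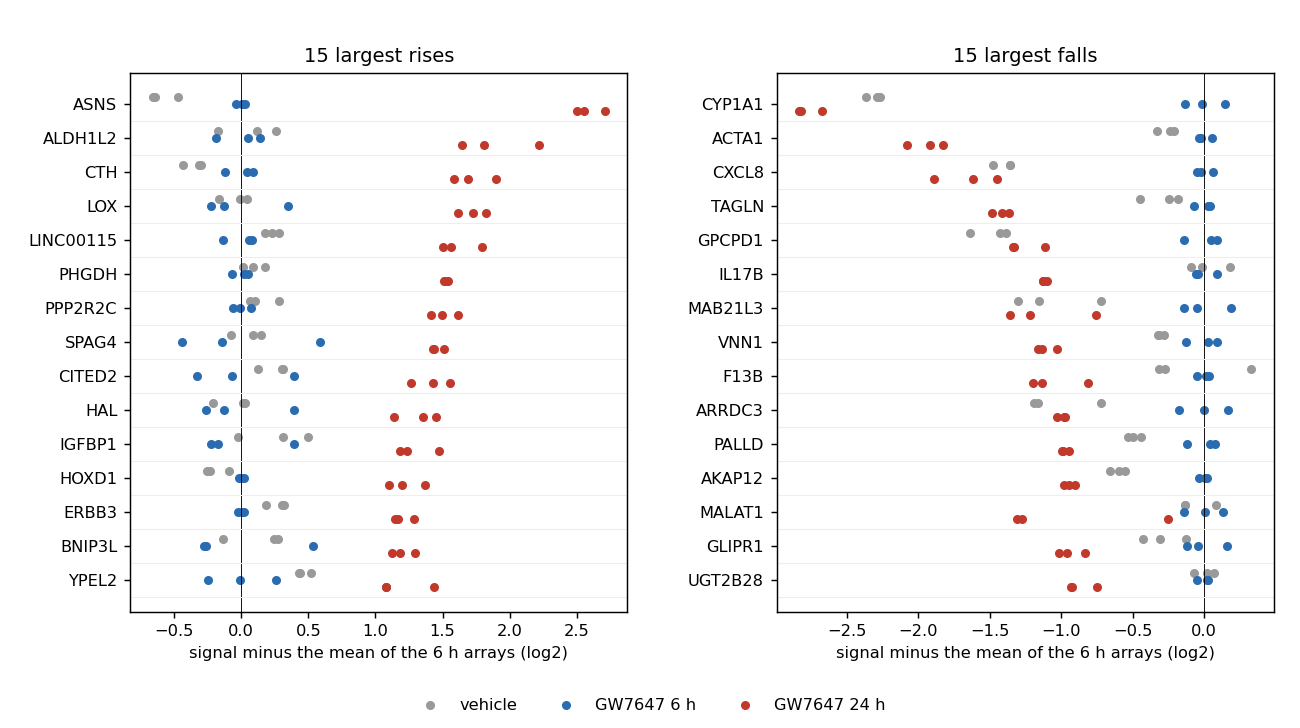
Signal of each array minus the mean of the 6 h arrays (log2, horizontal axes) for the 15 largest rises (left) and the 15 largest falls (right), with vehicle in grey, 6 h in blue and 24 h in red. Each gene's red points lie entirely apart from its blue points; the 6 h points are spread widest for SPAG4, BNIP3L and CITED2, and 1 red point of MALAT1 lies close to the blue ones.

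Genes of the ATF4 amino acid response rose more often than they fell. Of 29 measured members 13 rose and 1 fell, 44.8% and 3.45%, with a median log2 change of 0.19. ASNS, asparagine synthetase and a classical ATF4 target, read 9.07, 9.03 and 9.09 at 6 h and 11.62, 11.78 and 11.56 at 24 h. Values at 24 h lay far above the 6 h arrays, which in turn lay above vehicle at 8.41, 8.59 and 8.42. ASNS was 6.01-fold higher at 24 h (95% interval 5.39 to 6.70; log2 change 2.59 ± 0.07, SE; adjusted p = 8.09e-09). This probe set shares probes with other transcripts, and the other probe set, which is dim, gave 0.12 (adjusted p = 0.509). CTH, cystathionine gamma-lyase of cysteine synthesis, read 6.52, 6.35 and 6.56 at 6 h and 8.17, 8.37 and 8.06 at 24 h, 3.31-fold higher with an adjusted p of 1.49e-06. Its other probe set gave 1.52. VLDLR, a lipoprotein receptor, rose by 1.01 ± 0.09 on the log2 scale.

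Further members that rose were JDP2, an AP-1 family repressor (0.87), NUPR1, a stress-induced chromatin protein (0.81), CBS, cystathionine beta-synthase (0.80), ATF4 itself (0.73) and SLC7A1, the arginine and lysine transporter (0.48). SLC7A11, the cystine-glutamate exchanger, read 8.87, 9.03 and 9.05 at 6 h and 9.38, 9.57 and 9.59 at 24 h, after 7.53, 7.81 and 7.75 in vehicle. It rose by 0.53 ± 0.09 on the log2 scale. ATF3, a stress factor of the same family that is also an immediate early gene, fell by 0.41, while the mean of its probe sets changed by -0.15 (adjusted p = 0.0629). FGF21, a fasting hormone of liver under both ATF4 and PPARα, read 5.70, 5.73 and 5.91 at 6 h and 5.87, 5.70 and 5.54 at 24 h, with overlapping arrays (log2 change -0.08 ± 0.09, adjusted p = 0.654). Leaving out any 1 array left 12 or 13 members that rose, and 12 without 6 h replicate 3.

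The promoter of ASNS is shown because this gene had the largest rise and its promoter holds a match to the composite site that ATF4 and C/EBP factors bind. The motif searched was TGATGNAA on both strands of windows from 250 bases before to 50 after RefSeq transcript starts (GRCh38.p14). Of 15384 measured genes with a window, 3.61% held a match, as did 8 of 26 ATF4 response genes. Among members that rose, 3 of 11 held one (ASNS, JDP2 and SLC7A1), and ATF3, which fell, held one too. The 250 bases before the ASNS start, chr7:97872409-97872658 on the minus strand, are printed with the match in capitals, whose first base lies at -68.
ASNS: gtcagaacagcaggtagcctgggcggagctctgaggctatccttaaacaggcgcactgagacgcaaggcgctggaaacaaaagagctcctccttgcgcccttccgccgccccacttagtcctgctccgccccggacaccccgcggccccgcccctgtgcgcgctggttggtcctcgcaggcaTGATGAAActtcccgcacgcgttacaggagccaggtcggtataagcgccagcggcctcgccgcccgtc

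Aminoacyl-tRNA synthetases, which charge tRNAs with their amino acids, had the highest share of rises of the lists, just above hypoxia. That order turned without 6 h replicate 3, when 10 of 17 synthetases and 23 of 36 hypoxia genes rose. Of 17 measured cytosolic enzymes 11 rose and 3 fell, 64.7% and 17.6%, and the median log2 change was 0.35. YARS1, for tyrosine, read 10.53, 10.51 and 10.53 at 6 h and 11.53, 11.47 and 11.45 at 24 h, a change of 0.96 ± 0.06. Its times lay far apart on a probe set that shares probes, while its dimmer probe set gave -0.02 (adjusted p = 0.907). CARS1, for cysteine, read 10.10, 10.05 and 10.14 at 6 h and 11.01, 11.04 and 10.92 at 24 h. CARS1 was 1.86-fold higher at 24 h (95% interval 1.71 to 2.03; log2 change 0.90 ± 0.06, SE; adjusted p = 6.77e-06), and GARS1, for glycine, rose by 0.78 ± 0.05 on the log2 scale. AARS1 (0.67), SARS1 (0.57), EPRS1 (0.46) and IARS1 (0.44) rose as well. FARSB, a subunit of the phenylalanine enzyme, was at -0.32 (adjusted p = 0.0517 when shared probes were left out), and the other falls were HARS1, for histidine, at -0.18 and RARS1, for arginine, at -0.22. HARS1 lost its call without any 1 of the 6 GW7647 arrays or vehicle replicate 3 (adjusted p = 0.0635 to 0.184), and RARS1 without 24 h replicate 3, 6 h replicate 1 or 6 h replicate 3 (0.0546 to 0.0558). Without any 1 array 10 or 11 enzymes rose, 10 of them without 6 h replicate 3. The count of falls was 1 if 24 h replicate 3, 6 h replicate 1 or 6 h replicate 3 was left out. As the mean of its probe sets, TARS1 changed by 0.13 (adjusted p = 0.185). With shared probes left out, 12 enzymes were measured and 6 of them rose.

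The same composite motif lay in the promoter windows of 6 of 14 synthetase genes with a window (AARS1, CARS1, GARS1, IARS1, NARS1 and TARS1). All 6 were among the 9 that rose, and none of the 3 that fell held a match, although the calls of NARS1, HARS1 and RARS1 were each lost without some single arrays (for NARS1 24 h replicate 2 or 3 or 6 h replicate 2 or 3, adjusted p = 0.0691 to 0.0849). GARS1 (chr7:30594628-30594877, plus strand) and IARS1 (chr9:92293698-92293947, minus strand) are printed because their matches lie close to the start, at -33 and -13. Capitals mark the match, which in both lies on the opposite strand and so reads as its reverse complement.
GARS1: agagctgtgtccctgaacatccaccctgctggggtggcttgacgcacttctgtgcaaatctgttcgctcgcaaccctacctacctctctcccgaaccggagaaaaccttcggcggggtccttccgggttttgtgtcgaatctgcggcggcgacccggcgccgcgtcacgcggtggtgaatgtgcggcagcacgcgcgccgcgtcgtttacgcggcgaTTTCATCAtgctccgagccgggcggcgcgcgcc
IARS1: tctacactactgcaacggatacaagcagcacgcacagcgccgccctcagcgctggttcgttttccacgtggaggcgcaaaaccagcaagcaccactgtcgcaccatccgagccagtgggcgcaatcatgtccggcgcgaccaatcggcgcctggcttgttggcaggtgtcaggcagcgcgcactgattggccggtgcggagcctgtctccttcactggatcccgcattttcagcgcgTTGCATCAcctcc

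Serine synthesis and the folate cycle of mitochondria make glycine and single-carbon units. Of 18 measured enzymes of these pathways 8 rose and none fell, with a median log2 change of 0.14. ALDH1L2, mitochondrial formyltetrahydrofolate dehydrogenase, read 4.83, 5.07 and 5.16 at 6 h and 6.67, 7.24 and 6.83 at 24 h. It was 3.71-fold higher at 24 h (95% interval 2.95 to 4.66; log2 change 1.89 ± 0.15, SE; adjusted p = 2.74e-05), and its 24 h arrays were more widely spread than most. Its dimmer probe sets gave 0.32 and 0.78. PHGDH, which opens serine synthesis, read 9.59, 9.50 and 9.63 at 6 h and 11.11, 11.08 and 11.09 at 24 h. Its arrays at each time lay close together, and it rose by 1.52 ± 0.06 on the log2 scale. PSAT1 (0.86) and PSPH (0.72), the next steps to serine, rose too. In mitochondria, MTHFD2 (0.91) and SHMT2 (0.79) rose, whereas cytosolic SHMT1 (-0.04), MTHFD1 (-0.18) and TYMS, thymidylate synthase (-0.14), did not pass the test. The count was 7 without 6 h replicate 2 and 8 without any other array, and 1 member fell without vehicle replicate 2. Of 5 members that rose and had a promoter window, 0 held the composite motif.

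In the list of amino acid breakdown and the urea cycle, 5 of 25 rose and 2 fell. HAL, histidine ammonia-lyase, read 5.92, 6.06 and 6.58 at 6 h and 7.32, 7.63 and 7.54 at 24 h, a change of 1.31 ± 0.15 in which 6 h replicate 3 again lay highest of its group. Its dimmer probe sets gave 0.28 and -0.21. ASS1, argininosuccinate synthase, rose by 0.60 and CPS1, carbamoyl phosphate synthase, by 0.46. The count of rises was 3 without 6 h replicate 2. The count of falls was 0 without 24 h replicate 1 or 6 h replicate 1 and 1 without 24 h replicate 3 or 6 h replicate 2.

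**Figure D3:**
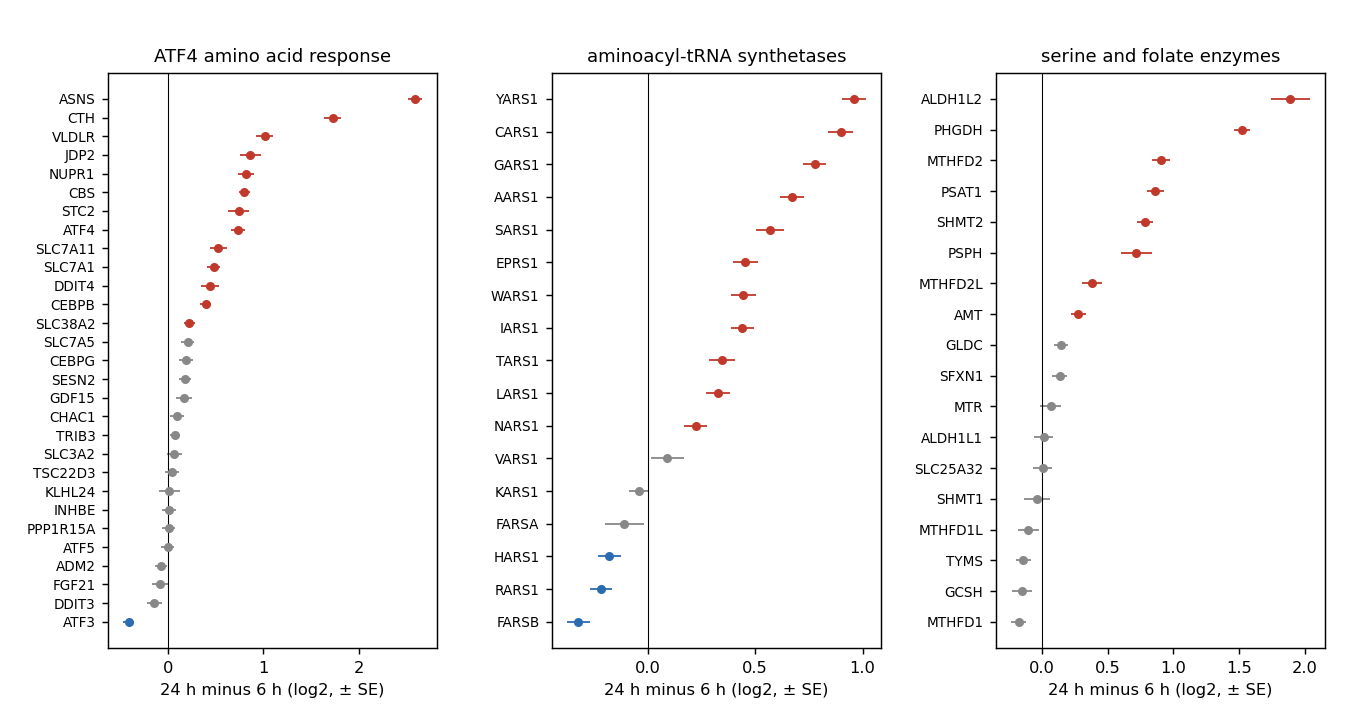
Log2 change from 6 h to 24 h with its standard error (horizontal axes) for each measured gene of the ATF4 response (29), the cytosolic aminoacyl-tRNA synthetases (17) and the serine and folate enzymes (18). Red genes rose, blue genes fell and grey genes did not pass; 13, 11 and 8 genes are red.

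Genes of the hypoxia response rose in larger numbers: 22 of 36 measured members rose and 2 fell, 61.1% and 5.56%, with a median log2 change of 0.35. The 24 h arrays lay entirely above the 6 h arrays in 25 of the 36, against 19.2% of all genes. LOX, lysyl oxidase that cross-links collagen, read 8.41, 8.32 and 8.89 at 6 h and 10.16, 10.36 and 10.26 at 24 h. LOX was 3.30-fold higher at 24 h (95% interval 2.71 to 4.01; log2 change 1.72 ± 0.13, SE; adjusted p = 1.87e-05), and its other probe sets gave 2.04 and 1.91. CITED2, which competes with HIF for the coactivator p300, read 6.20, 5.94 and 6.67 at 6 h and 7.70, 7.82 and 7.53 at 24 h. IGFBP1, a secreted binder of insulin-like growth factors, read 11.11, 11.16 and 11.73 at 6 h and 12.57, 12.81 and 12.51 at 24 h. In each, the 6 h replicate 3 was the nearest of its group to the 24 h arrays without reaching them. CITED2 rose by 1.41 ± 0.15 and IGFBP1 by 1.29 ± 0.17 on the log2 scale.

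BNIP3L, a receptor for the removal of mitochondria, read 8.38, 8.36 and 9.17 at 6 h and 9.76, 9.94 and 9.82 at 24 h, a change of 1.20 ± 0.19. Further rises were MXI1, a MYC antagonist (0.87), the histone demethylases KDM4B (0.80) and KDM3A (0.63), the growth factor VEGFA (0.65), the red cell hormone EPO (0.58) and EGLN3, which marks HIF for destruction (0.35). The oxygen-regulated subunits HIF1A (-0.24) and EPAS1 (-0.19) were the members that fell. Those falls numbered 0 without 24 h replicate 2 or any 6 h array, and 1 without 24 h replicate 1, 24 h replicate 3 or vehicle replicate 1.

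The array values of the list as a whole set 6 h replicate 3 apart. The median over the 36 genes of the signal minus the 6 h mean was -0.04, -0.12 and 0.17 in 6 h replicates 1, 2 and 3. In the 24 h arrays it was 0.41, 0.36 and 0.30, and in vehicle 0.03, 0.02 and 0.04. Without 6 h replicate 3, 23 members rose, and leaving out other arrays gave 18 to 23. With shared probes left out, 27 members were measured and 12 rose.

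LOX is shown as the hypoxia gene with the largest rise. The core of the HIF site, ACGTG, lay on either strand of 28.8% of all promoter windows by gene and in 17 of 29 hypoxia genes, 9 of the 16 that rose. In the 250 bases before the LOX start, chr5:122078260-122078509 on the minus strand, the matches in capitals begin at -185, -116, -98 and -42 and do not overlap.
LOX: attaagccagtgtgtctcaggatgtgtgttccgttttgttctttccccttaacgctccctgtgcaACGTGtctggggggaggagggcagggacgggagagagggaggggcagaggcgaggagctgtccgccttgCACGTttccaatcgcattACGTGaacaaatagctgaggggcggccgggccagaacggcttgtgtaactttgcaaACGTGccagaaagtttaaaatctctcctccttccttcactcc

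**Figure D4:**
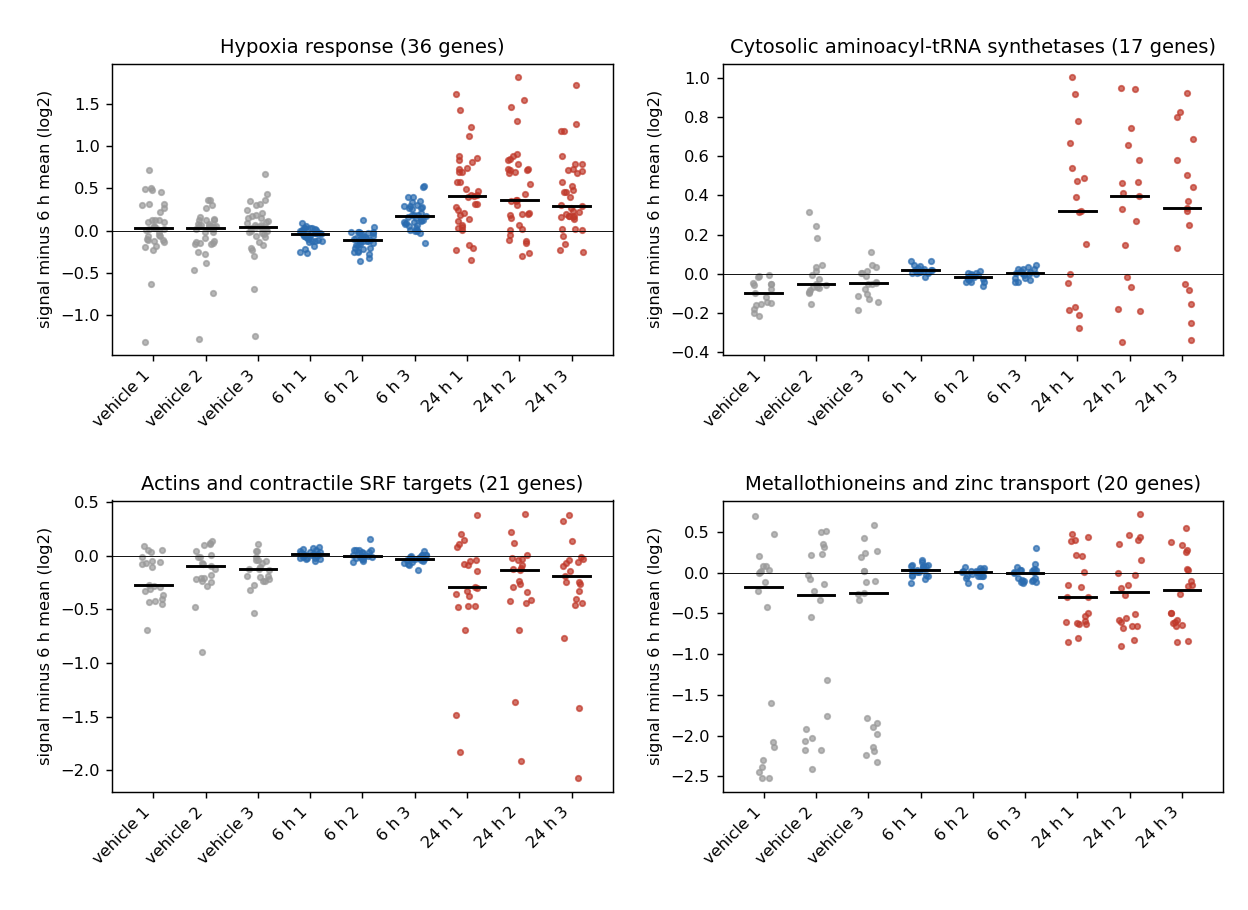
Signal minus the mean of the 6 h arrays (log2, vertical axes) for each gene of 4 lists in each of the 9 arrays, with 1 point per gene and a bar at the median. In the hypoxia panel the bar of 6 h replicate 3 lies at 0.17, between the other 6 h arrays and the 24 h arrays; in the metallothionein panel a cluster of genes lies far below the 6 h level in vehicle.

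Of 27 measured genes of glycolysis and glucose transport 9 rose and 2 fell, with a median log2 change of 0.19. PFKFB4, which makes the activator of phosphofructokinase, read 8.56, 8.57 and 9.34 at 6 h and 9.67, 9.62 and 9.55 at 24 h, a change of 0.78 ± 0.17. PDK1, which switches off pyruvate dehydrogenase, rose by 0.60 ± 0.15 (adjusted p = 0.023). That call was lost when replicate 1 or 2 of either time was left out (adjusted p = 0.0692 to 0.0973). HK2, a hexokinase of growing cells, rose by 0.56 ± 0.07, while the mean of its probe sets changed by 0.10 (adjusted p = 0.329). SLC2A2, the liver glucose transporter GLUT2, fell by 0.51. The count of rises depended on single arrays. It was 2 without 24 h replicate 2, 6 h replicate 1 or 6 h replicate 2, 4 without 24 h replicate 1 or 3, and 8 without 6 h replicate 3. The count of falls was 1 without 24 h replicate 1 or 3 or any 6 h array.

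Glucose production and glycogen genes rose in 6 of 19 cases and fell in none. PPARGC1A, the coactivator PGC-1α of fasting metabolism, read 5.75, 5.58 and 5.48 at 6 h and 6.74, 6.93 and 6.72 at 24 h, with 6.40, 6.18 and 6.14 in vehicle. PPARGC1A was 2.29-fold higher at 24 h (95% interval 1.99 to 2.63; log2 change 1.19 ± 0.09, SE; adjusted p = 2.11e-05). Its 6 h arrays lay below and its 24 h arrays above the vehicle arrays. PCK2, the mitochondrial form of phosphoenolpyruvate carboxykinase, rose by 0.97 ± 0.06 and G6PC1, which releases free glucose, by 0.50 ± 0.07. G6PC1 was dim, with mean signals of 5.01 at 6 h and 5.51 at 24 h. PCK1, the cytosolic form, changed by 0.34 without passing the test.

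The receptor pair itself rose between the times. PPARA read 7.91, 7.85 and 7.87 at 6 h and 8.41, 8.48 and 8.41 at 24 h, and RXRA read 9.05, 8.96 and 9.13 and 9.62, 9.69 and 9.57. The 24 h arrays lay above the 6 h arrays in both and close to the vehicle arrays, which read 8.46, 8.41 and 8.60 for PPARA and 9.65, 9.81 and 9.61 for RXRA. PPARA was 1.47-fold higher at 24 h (95% interval 1.34 to 1.61; log2 change 0.55 ± 0.06, SE; adjusted p = 2.15e-04). That value is from the brightest of the 9 PPARA probe sets, and the others are not quoted here. RXRA was 1.5-fold higher (adjusted p = 3.79e-04), with a log2 change of 0.58 on a shared probe set and of 0.25 on its other probe set. A comparison of 6 h with vehicle shares the 6 h arrays with this one, so the levels are set side by side and not tested against each other. In the list of nuclear receptors and coregulators 9 of 29 rose and 3 fell. The rises numbered 6 without 24 h replicate 3 or 6 h replicate 1. NR2F1, an orphan receptor, rose by 0.74. NR3C1, the glucocorticoid receptor, changed by -0.43, or by -0.23 (adjusted p = 0.459) with shared probes left out. AHR, the aryl hydrocarbon receptor, changed by -0.32, and its call was lost when any 6 h array or 24 h replicate 1 or 3 was left out (adjusted p = 0.0594 to 0.0928).

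Of 25 classical PPARα targets 8 rose and 2 fell, with a median log2 change of 0.12. PLIN2, the lipid droplet coat protein, read 12.54, 12.51 and 12.72 at 6 h and 13.09, 13.02 and 13.01 at 24 h against 11.55, 11.57 and 11.54 in vehicle. Vehicle lay lowest and 24 h highest without overlap, and PLIN2 was 1.37-fold higher at 24 h (95% interval 1.24 to 1.51; log2 change 0.45 ± 0.06, SE; adjusted p = 9.05e-04). CPT1A, the gate of fatty acid entry into mitochondria, read 10.13, 10.09 and 10.15 at 6 h and 10.70, 10.68 and 10.65 at 24 h, a change of 0.55 ± 0.09. Its 24 h arrays lay above all others, while 6 h and vehicle overlapped.

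FABP1, the fatty acid binding protein of liver, rose by 0.37 ± 0.06, APOA5, an activator of triglyceride clearance, by 0.59 ± 0.08 and ETFDH, which passes electrons from oxidation to ubiquinone, by 0.57 ± 0.07. VNN1, a pantetheinase, went the other way. It read 7.13, 6.91 and 7.06 at 6 h and 5.86, 6.00 and 5.90 at 24 h, with 6.71, 6.72 and 6.75 in vehicle, and was 2.16-fold lower at 24 h (95% interval 1.95 to 2.39; log2 change -1.11 ± 0.07, SE; adjusted p = 4.80e-06). At 24 h it lay below both other groups, and its dimmer probe set gave -0.50. ACSL1, an acyl-CoA synthetase, fell by 0.47. ANGPTL4, a lipase inhibitor, read 7.22, 6.92 and 7.34 at 6 h and 7.47, 7.35 and 7.46 at 24 h, with a change of 0.27 ± 0.10 that did not pass (adjusted p = 0.122; as the mean of its probe sets 0.33, adjusted p = 0.0276). PDK4, a pyruvate dehydrogenase kinase, lay near the floor at 3.94, 3.83 and 3.99 and 3.88, 3.79 and 3.77 (change -0.10 ± 0.13, adjusted p = 0.691). CYP4A11, a fatty acid omega-hydroxylase, changed by -0.07 ± 0.05 (adjusted p = 0.506). Without 6 h replicate 2, 5 targets rose, and 989 rather than 1826 of all genes.

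The list of mitochondrial oxidation of fatty acids and carnitine transport had 9 of 22 members that rose and none that fell, with a median log2 change of 0.18. The 24 h arrays lay entirely above the 6 h arrays in 16, against 19.2% of all genes. The 24 h replicate 2 was the highest 24 h array in 15 of the 22, against 35.4% of all genes, and 8 members rose without it. ECI1, an enoyl-CoA isomerase, rose by 0.39, DECR1, which prepares unsaturated fatty acids for oxidation, by 0.27. ACADM (0.14), ACADVL (0.11) and CPT2 (0.06) did not pass. Without 6 h replicate 2, 4 members rose and DECR1 was not among them (adjusted p = 0.0523). In peroxisomes 5 of 19 rose and 1 fell. CAT, catalase, rose by 0.48 ± 0.06 and PECR, a trans-enoyl-CoA reductase, by 0.34, while ACOX3, an oxidase of branched fatty acids, fell by 0.36. That count of rises was 3 without 24 h replicate 2, 6 h replicate 2 or 6 h replicate 3.

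Among lipid droplet and triglyceride genes 6 of 22 rose and 2 fell. LPIN2, a phosphatidate phosphatase, rose by 0.53, PLIN3, another droplet coat protein, by 0.44 and PNPLA3, a droplet hydrolase, by 0.41. AQP3, a glycerol channel, fell by 0.82, with -0.25 and -0.24 on its other probe sets, and LPIN1, a phosphatase that is also a coactivator, by 0.44. Among apolipoprotein genes 2 of 17 rose, which were APOA5 and ANGPTL8, a lipase regulator (change 0.89 ± 0.15), and APOM, a carrier of sphingosine phosphate, fell by 0.60. For ANGPTL8 the 6 h arrays read 9.76, 9.64 and 10.37, with replicate 3 again the highest.

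Cholesterol genes moved down in larger numbers than up. Of 20 measured members of synthesis, uptake and control 6 fell and 2 rose, 30.0% and 10.0%, with a median log2 change of -0.15. HMGCS1, the cytosolic HMG-CoA synthase, read 9.35, 9.32 and 9.19 at 6 h and 8.35, 8.47 and 8.44 at 24 h, with 8.64, 8.49 and 8.68 in vehicle. HMGCS1 was 1.82-fold lower at 24 h (95% interval 1.64 to 2.03; log2 change -0.87 ± 0.07, SE; adjusted p = 3.09e-05), and its 6 h arrays lay above both other groups. STARD4, a sterol carrier, fell by 0.63, and MSMO1, of the late steps of synthesis, by 0.36. IDI1, which isomerises isopentenyl diphosphate, changed by -0.70 ± 0.06 on a shared probe set. Its brightest unshared probe set gave 0.36 (adjusted p = 0.0845), and the mean of its probe sets -0.18 (adjusted p = 0.059). INSIG2, which holds back the sterol regulator and also sits in the hypoxia list, rose by 0.49. The count of rises was 1 without 6 h replicate 1 or 2 or any 24 h array.

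Of 21 bile acid genes 8 rose and 1 fell. NR0B2, the repressor SHP of bile acid synthesis, read 9.65, 9.64 and 9.72 at 6 h and 10.49, 10.47 and 10.49 at 24 h and was 1.76-fold higher at 24 h (95% interval 1.61 to 1.92; log2 change 0.81 ± 0.06, SE; adjusted p = 1.33e-05). Its arrays at each time were nearly level. SLC51B, of the bile acid exporter of the basolateral membrane, rose by 0.68, and FGFR4 and KLB, the receptor of FGF19, by 0.43 and 0.35. AKR1D1, a steroid reductase of the pathway, fell by 0.77, and CYP7A1 (-0.08), the rate-limiting enzyme, did not pass. Rises numbered 6 without replicate 1 or 2 of either time, and falls 2 without 24 h replicate 1. Fatty acid synthesis had 3 rises and 2 falls in 17 genes, with TKT, transketolase, at 0.29 and SREBF1, the lipogenic regulator, at 0.25. ACSS2, an acetyl-CoA synthetase, was at -0.23. The rises numbered 1 without 24 h replicates 1 or 3 or 6 h replicates 1 or 2, and the falls 0 without 24 h replicates 1 or 3 or any 6 h array. The calls of SREBF1 (adjusted p = 0.0608 to 0.112) and ACSS2 (0.0574 to 0.0986) were both lost without each of those arrays, and TKT gave 0.13 (adjusted p = 0.416) with shared probes left out.

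CYP1A1 had the largest change of any gene tested. This cytochrome P450, the classical target of the aryl hydrocarbon receptor, read 9.79, 9.95 and 9.67 at 6 h and 7.12, 6.98 and 6.97 at 24 h, with 7.51, 7.53 and 7.43 in vehicle. The 6 h arrays lay far above both other groups, and the 24 h arrays lay just below vehicle. CYP1A1 was 6.86-fold lower at 24 h (95% interval 6.10 to 7.71; log2 change -2.78 ± 0.08, SE; adjusted p = 8.09e-09). Of 27 drug metabolism genes and targets of that receptor 5 fell and 3 rose. CYP1A2 (-0.16), CYP1B1 (-0.17), TIPARP (-0.02) and AHRR (0.01), other targets, did not pass. UGT2B28, a steroid glucuronosyltransferase, fell by 0.87 on a probe set shared with close relatives. SULT1A1, a phenol sulfotransferase, changed by 0.57 on a shared probe set and by -0.06 (adjusted p = 0.745) on another.

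Metallothioneins, cysteine-rich proteins that hold zinc and copper, fell together with a zinc exporter. Of 20 measured genes of metallothioneins and zinc transport 11 fell and 5 rose, 55.0% and 25.0%, with a median log2 change of -0.23. MT1E read 13.36, 13.38 and 13.21 at 6 h and 12.47, 12.42 and 12.48 at 24 h, with 10.87, 11.14 and 11.12 in vehicle. MT1X read 12.97, 12.90 and 12.78 and 12.07, 12.06 and 12.03, with 10.50, 10.81 and 10.75 in vehicle. In both, the 24 h arrays lay below the 6 h arrays and above the vehicle arrays. MT1E was 1.82-fold lower at 24 h (95% interval 1.61 to 2.05; log2 change -0.86 ± 0.08, SE; adjusted p = 6.96e-05).

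MT1X fell by 0.83, MT1F by 0.65, MT2A by 0.57 and SLC30A1, the zinc exporter, by 0.53. Zinc transporters made up the rises, among them SLC39A7 at 0.48 and SLC39A14 at 0.41. The metallothionein genes are near copies of each other, and most of their probe sets share probes. Their separate values are therefore uncertain, and with shared probes left out, 12 genes of the list were measured and 2 fell. MT1X is shown because its promoter region is dense in the core of the metal response element, TGCNCNC. That short core lay on either strand of 66.8% of all genes' windows and in 9 of 12 genes of the list. In chr16:56682220-56682469, plus strand, the matches in capitals begin at -150, -122, -78 and -53 without overlap.
MT1X: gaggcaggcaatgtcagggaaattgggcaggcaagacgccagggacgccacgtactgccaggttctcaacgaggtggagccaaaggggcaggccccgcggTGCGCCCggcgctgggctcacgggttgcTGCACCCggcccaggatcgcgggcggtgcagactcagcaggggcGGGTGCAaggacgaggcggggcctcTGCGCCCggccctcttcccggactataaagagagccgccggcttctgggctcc

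Targets of NRF2, the factor of oxidative stress, outside the metallothioneins fell in 9 of 26 cases and rose in 3, 34.6% and 11.5%. The 6 h replicate 1 was the highest 6 h array in 19 of the 26, against 39.5% of all genes, and 7 members fell without it. SRXN1, which repairs peroxiredoxins, read 11.56, 11.47 and 11.47 at 6 h and 10.97, 11.01 and 11.04 at 24 h. SRXN1 was 1.41-fold lower at 24 h (95% interval 1.30 to 1.53; log2 change -0.50 ± 0.05, SE; adjusted p = 1.64e-04), and its 24 h arrays lay below vehicle, which read 11.29, 11.32 and 11.29. GCLM, of glutathione synthesis, fell by 0.44 and TXNRD1, thioredoxin reductase, by 0.42. HMOX1, heme oxygenase (0.01), and NQO1, a quinone reductase (0.11), did not pass. SLC7A11 was the largest rise, as given above.

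Genes of actin and the contractile apparatus that the factor SRF controls fell in 10 of 21 cases and rose in 2, 47.6% and 9.52%, with a median log2 change of -0.17. ACTA1, skeletal muscle actin, read 8.76, 8.84 and 8.75 at 6 h and 6.96, 6.87 and 6.71 at 24 h, with 8.46, 8.58 and 8.55 in vehicle. At 24 h it lay below both other groups. ACTA1 was 3.84-fold lower at 24 h (95% interval 3.45 to 4.28; log2 change -1.94 ± 0.07, SE; adjusted p = 1.06e-07). TAGLN, transgelin, which binds actin filaments, read 11.50, 11.49 and 11.39 at 6 h and 9.98, 10.10 and 10.05 at 24 h, a change of -1.42 ± 0.07 on a shared probe set.

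Another TAGLN probe set gave -1.31, and the one without shared probes -0.15 (adjusted p = 0.292). MYL9, a myosin light chain, changed by -0.72 on a shared probe set and by 0.05 (adjusted p = 0.801) on the other. PALLD, palladin of stress fibres, which is not on the list, changed by -0.98, and by -0.18 (adjusted p = 0.31) with shared probes left out. TPM1, a tropomyosin, was at -0.44, or -0.12 (adjusted p = 0.453) with shared probes left out, and ZYX, zyxin of focal adhesions, fell by 0.29 (adjusted p = 0.0575 without 6 h replicate 1). The rises were ACTA2 and TLN1, talin (0.04 with an adjusted p of 0.863 when shared probes were left out), and a single member rose without 24 h replicate 3, 6 h replicate 2 or 6 h replicate 3. The falls numbered 7 without 24 h replicate 1, 6 h replicate 1 or 6 h replicate 2. With shared probes left out, 14 members were measured and 4 fell. ACTA1 is shown for its CArG box, the site that SRF binds, which lay in 1.66% of all genes' windows and in 8 of 18 genes of the list, 3 of the 8 that fell and 0 of the 2 that rose. In chr1:229434095-229434344, minus strand, the match in capitals begins at -97.
ACTA1: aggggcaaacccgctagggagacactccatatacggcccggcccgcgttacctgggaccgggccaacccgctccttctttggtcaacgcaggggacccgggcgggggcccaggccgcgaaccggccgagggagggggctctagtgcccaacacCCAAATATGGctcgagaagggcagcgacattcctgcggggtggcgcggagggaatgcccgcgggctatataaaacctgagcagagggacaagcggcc

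Immediate early genes, which growth factors and fresh serum switch on within minutes, fell in 9 of 34 cases and rose in 3, 26.5% and 8.82%. EGR1, a zinc finger factor, read 9.34, 9.36 and 9.11 at 6 h and 8.53, 8.49 and 8.35 at 24 h, with 8.25, 8.02 and 8.52 in vehicle. JUNB, an AP-1 subunit, read 8.07, 8.22 and 7.94 at 6 h and 7.18, 7.38 and 7.37 at 24 h. The 24 h arrays of both lay below the 6 h arrays and near vehicle. EGR1 fell by 0.81 and JUNB by 0.77, and SGK1, a serum-induced kinase, by 0.66. FOS (-0.20) and DUSP1 (-0.07) did not pass, and CCN2, a matrix-associated growth factor, rose by 0.46. Without 6 h replicate 2 a single member rose and 6 fell, and 11 fell without vehicle replicate 2.

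CXCL8, the chemokine interleukin-8, read 6.98, 7.07 and 6.96 at 6 h and 5.38, 5.56 and 5.11 at 24 h, with 5.53, 5.64 and 5.64 in vehicle. CXCL8 was 3.14-fold lower at 24 h (95% interval 2.71 to 3.64; log2 change -1.65 ± 0.10, SE; adjusted p = 4.12e-06) on a shared probe set, and its 6 h arrays lay above both other groups. Of 28 inflammatory genes 5 fell and 1 rose. Those that fell with it were CCL20, a chemokine (-0.69), TNFAIP3, an inhibitor of NF-κB (-0.59), RELB, an NF-κB subunit (-0.50), and NFKBIA, the NF-κB inhibitor IκBα (-0.47, or -0.16 with an adjusted p of 0.384 when shared probes were left out). CXCL1 (0.01), CXCL2 (-0.19) and IL1B (-0.14) did not pass. No member rose without 6 h replicate 1 or 2. With shared probes left out, 2 of 20 measured members fell. Of 28 interferon response genes 4 rose and none fell, among them IFIT1 at 0.49 and IFI35 at 0.38. The count was 2 without 24 h replicate 3, 6 h replicate 2 or 6 h replicate 3. IFIT1, dim at mean signals of 4.42 at 6 h and 4.91 at 24 h, lost its call without these same arrays (adjusted p = 0.0542, 0.105 and 0.0832).

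Plasma proteins that the liver secretes fell in part. Of 31 acute phase and complement genes 9 fell and 4 rose. ITIH3, a carrier of hyaluronan, read 11.64, 11.58 and 11.71 at 6 h and 11.02, 11.05 and 11.09 at 24 h and was 1.5-fold lower at 24 h (95% interval 1.36 to 1.66; log2 change -0.59 ± 0.06, SE; adjusted p = 1.99e-04). CP, ceruloplasmin, fell by 0.55 and FGB by 0.54, and FGG, another fibrinogen chain, by 0.31. HP, haptoglobin, was at 0.27, and its call was lost without 24 h replicate 2 or 3 or any 6 h array (adjusted p = 0.0511 to 0.092). The rises numbered 2 without 6 h replicate 2, and the falls 6 without 6 h replicate 3. In coagulation 4 of 25 fell and 4 rose. F13B, of the clot-stabilising factor, read 5.44, 5.36 and 5.42 at 6 h and 4.20, 4.59 and 4.27 at 24 h and fell by 1.05. These are dim signals, as the median over all genes was 6.74. CPB2, a fibrinolysis inhibitor, and F5, a cofactor of thrombin formation, fell by 0.50 and 0.47. The rises numbered 1 or 2 without any 1 of the 6 GW7647 arrays.

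Transcription factors of hepatocyte identity rose in 9 of 18 cases and fell in none, with a median log2 change of 0.27. FOXA2, a pioneer factor, read 9.19, 9.08 and 9.21 at 6 h and 9.80, 9.81 and 9.65 at 24 h, with 9.52, 9.48 and 9.51 in vehicle. The 24 h arrays lay above both other groups, and FOXA2 was 1.51-fold higher at 24 h (95% interval 1.37 to 1.66; log2 change 0.59 ± 0.06, SE; adjusted p = 1.56e-04). TCF7L2, an effector of Wnt signals, rose by 0.59, HNF4G, a nuclear factor of the gut and liver, by 0.56 and FOXA3 by 0.43. CEBPA (0.09) and ONECUT1 (0.13) did not pass. The 6 h replicate 3 was the highest 6 h array in 13 of the 18, against 31.5% of all genes, and 8 factors rose without it. Only 6 rose without 24 h replicate 2, 6 h replicate 1 or 6 h replicate 2. A single factor fell without vehicle replicate 2. Of 17 clock genes 5 rose and 1 fell. NFIL3, a repressor of clock output, rose by 0.49 and BMAL1, of the positive limb, by 0.44, while CLOCK, its partner, fell by 0.33. That fall was lost without 24 h replicate 2, 6 h replicate 1 or 6 h replicate 2. RORA, an activator of BMAL1, read 5.62, 5.56 and 6.03 at 6 h and 5.93, 6.45 and 6.47 at 24 h. Its arrays overlapped, and its call (adjusted p = 0.0465) was lost, at an adjusted p of 0.0566 to 0.179, without 24 h replicate 2 or 3, 6 h replicate 1 or 2, or vehicle replicate 1 or 3.

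Targets of p53 and death receptor genes were split, with 7 of 23 rising and 4 falling. TNFSF10, the death ligand TRAIL, read 6.85, 6.78 and 6.81 at 6 h and 7.49, 7.89 and 7.71 at 24 h, with 8.19, 8.05 and 8.18 in vehicle. It rose by 0.88 ± 0.09, PTCHD4, a p53-induced membrane protein, by 0.86 and BAX, which permeabilises mitochondria, by 0.50. TP53INP1, a stress-induced p53 partner, changed by 0.67, or by 0.08 (adjusted p = 0.421) as the mean of its probe sets. FAS, a death receptor, changed by -0.49, or by -0.08 (adjusted p = 0.677) with shared probes left out. CDKN1A, the p21 inhibitor of the cell cycle, changed by -0.31 and lost its call without 6 h replicate 1 or 2 (adjusted p = 0.0512 and 0.0517). Falls numbered 2 without 24 h replicate 1 or 6 h replicate 2 and 1 without 6 h replicate 1.

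Among 45 cell cycle genes 10 fell and 7 rose. CCNE1, cyclin E1, was at -0.52, and CDC6 and CDC45, of the start of DNA replication, at -0.42 and -0.41. MCM2, a subunit of the replicative helicase, rose by 0.23, a call lost without any 24 h array or without 6 h replicate 1 or 2 (adjusted p = 0.062 to 0.12). CENPE, a kinetochore motor, fell by 0.59 and CDK1 by 0.48, whereas CCNB2, a mitotic cyclin, rose by 0.52, while the mean of its probe sets changed by 0.15 (adjusted p = 0.0723). CCNE2, cyclin E2, was at -0.76 ± 0.19, and its call was lost when 24 h replicate 1 or 3 or 6 h replicate 1 or 2 was left out (adjusted p = 0.0515 to 0.0824). The rises numbered 3 without 24 h replicate 2, 6 h replicate 1 or 6 h replicate 2 and 4 without 6 h replicate 3. The falls numbered 6 without 24 h replicate 3 or 6 h replicate 1. Ribosome biogenesis had 4 falls and no rise in 24 genes. NOP58, of the small nucleolar particles, was at -0.38, and the falls numbered 2 without 24 h replicate 2 or 3 or 6 h replicate 1 or 2.

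In the endoplasmic reticulum list 4 of 24 rose and 1 fell. HERPUD1, of protein degradation there, was at 0.51 and DNAJB9, a chaperone, at -0.42, and with shared probes left out at 0.23 (adjusted p = 0.238) and -0.22 (0.189). HSPA5, the chaperone BiP, did not pass (-0.13). The rises numbered 2 without 6 h replicate 2 or 3, and the falls 2 without 24 h replicate 3 or vehicle replicate 2. Of 16 cytosolic heat shock genes 3 fell, among them DNAJB1 (-0.51) and HSPH1 (-0.39), and DNAJB6 rose (0.35) unless 6 h replicate 2 was left out (adjusted p = 0.053). The 6 h replicate 1 was the highest 6 h array in 23 of 33 respiratory chain genes, against 39.5% of all genes. Of these 33, 4 rose and 1 fell, with ATP5MC1, of the ATP synthase ring, at 0.36 and CYCS, cytochrome c, at -0.33, or -0.26 (adjusted p = 0.109) as the mean of its probe sets. The rises numbered 1 or 2 without any 1 of the 6 GW7647 arrays, 2 without vehicle replicate 3 and 7 without vehicle replicate 2. Of 26 genes of insulin-like growth factors and activins 4 rose and 4 fell. IGFBP1 had the largest rise, as given above, and ID1 and ID3, targets of BMP signals, fell by 0.55 and 0.60. The rises numbered 2 without 24 h replicate 2 or 3 or 6 h replicate 2.

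**Figure D5:**
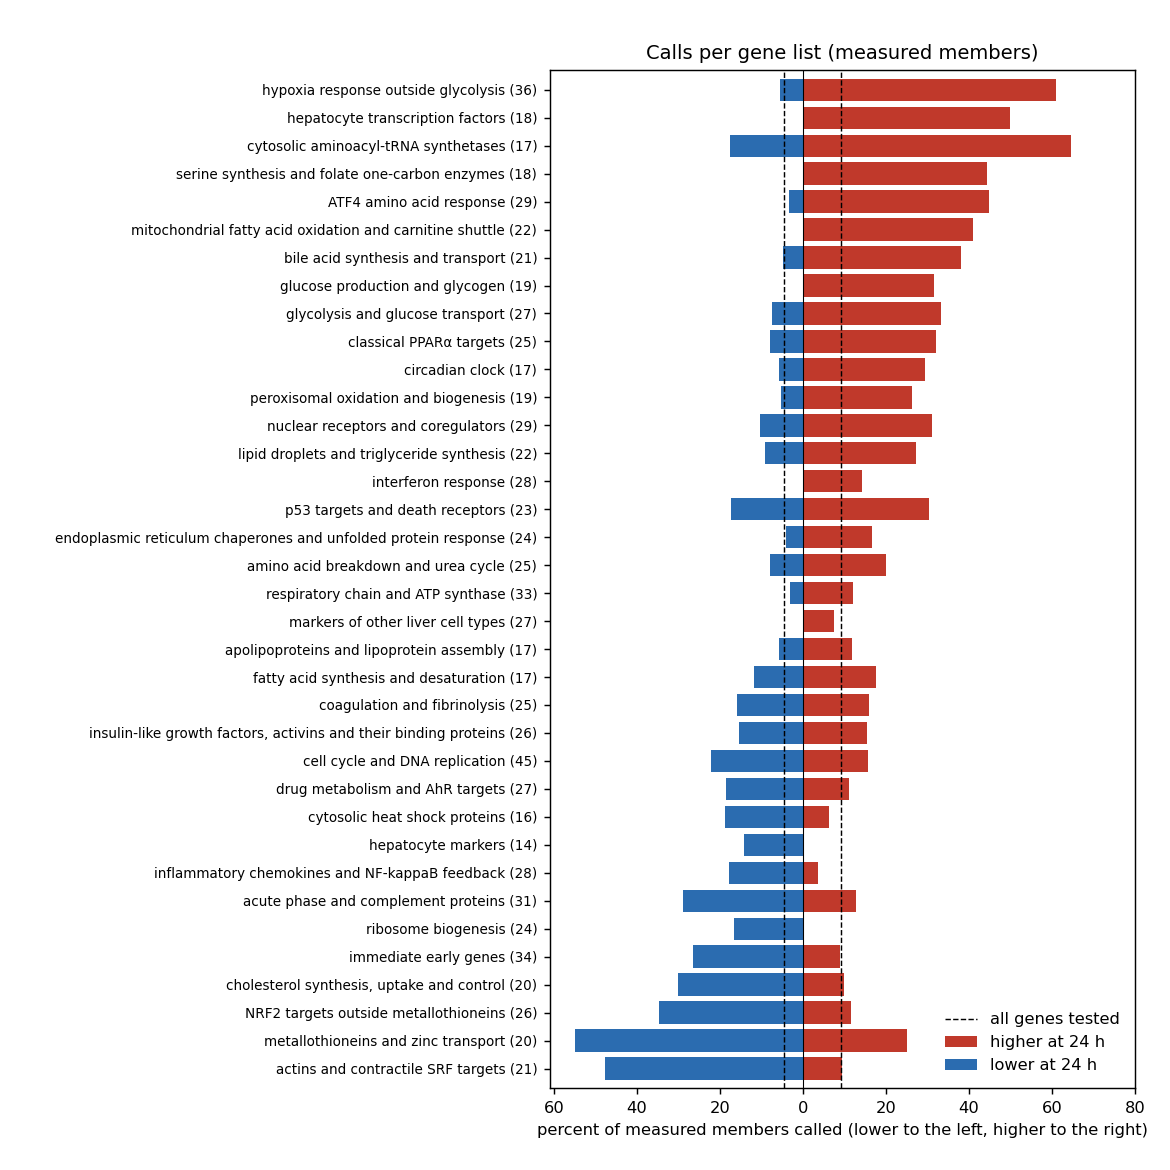
Percent of measured members of each of the 36 lists that rose (red, to the right) or fell (blue, to the left), with the number of measured members in brackets and dashed lines at the shares of all genes, 9.23% and 4.57%. The tRNA synthetase and hypoxia bars reach farthest to the right, at 64.7% and 61.1%, and the metallothionein and contractile bars farthest to the left, at 55.0% and 47.6%. The lists were chosen with earlier results of these data known.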

How the data were processed

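Each of 9 Affymetrix arrays was deposited as log2 probe set signals, made with RMA per the submitters' processing notes; no source used here gives its version or the chip definition. RMA corrects background, normalizes the arrays to 1 distribution and summarises probes, which pulls array-wide shifts out of the values. The deposited log2 values ran from 2.66 to 15.0 with 0 missing and were used unchanged. Of 54675 probe sets, 62 were controls, 41097 had 1 gene symbol, 1801 several and 11721 none. The 41091 usable ones gave 19775 genes, each taken as its probe set with the highest mean. Precision is limited by 3 arrays per group.

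Groups were fitted over all 9 arrays with limma 3.58.1 (lmFit, eBayes; 6 residual and 11.0 total degrees of freedom) in R 4.3.3, two-sided, with Benjamini-Hochberg adjustment over all genes; files were read with the data.table package, version 1.17.8. An exact permutation test of 3 against 3 cannot give a p under 0.1. The members and the gene lists were chosen with earlier results of these data known. Named were the 15 largest rises and falls with arrays entirely apart, up to 3 members per list with the largest change that passed, and 12 genes of PPARα biology, 10 of them measured. Within a list's description up to 6 further members were named. Probe sets ending in _x_at or _s_at are said to share probes. This was not said at every gene. It also holds for the values of LOX, MALAT1, VLDLR, GARS1, FABP1, APOA5, APOM and FOXA2. The same is true of EGR1, TNFAIP3, FGB, BMAL1, ID1 and ID3, among others. Promoters are from RefSeq (GRCh38.p14). The alternatives were the replicate block, the 6 GW7647 arrays alone, a trended robust prior, a signal filter, another choice of probe set, another normalization and each array left out. In a self-test on simulated data for this comparison over 19775 genes, 52% of genes changed by 0.3 on the log2 scale were recovered, 96% at 0.5 and 100% at 1 and 2, with 10 false calls. It changed 50 genes per size, far fewer than were called here, with noise drawn independently for each gene and array. Its rates therefore need not hold for the real arrays.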

Additional observations from a re-analysis of the deposited data

How the results depend on the processing

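Leaving out each array in turn gave 1519 to 3082 genes called, 989 to 2061 higher and 499 to 1021 lower, and 1362 genes were called in all 9 of these fits. The fewest calls came without 6 h replicate 2 (1519), then without 6 h replicate 1 (1739). With shared probes left out, 17098 genes were tested, of which 1774 were called and 1142 were higher. Of the genes called originally, 158 then had the opposite sign, with a dimmer probe set without shared probes standing for the gene. The reason for the change of sign was not tested. Among named genes that sign change took HOXD1 to -0.17, IDI1 to 0.36, MYL9 to 0.0499, YARS1 to -0.0199 and SULT1A1 to -0.0575, with adjusted p from 0.0845 to 0.907. The other alternatives kept the total within 1.5 times of 2729: 2984 with the 6 GW7647 arrays alone, 3308 with a trended robust prior, 3407 of 9887 genes above the median signal, 2436 with the mean of all probe sets, 2668 after quantile normalization and 2670 after median centring.

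Same-numbered arrays of the 6 h and 24 h groups deviated with correlations of -0.0782, -0.0920 and 0.0173, so the numbers were not taken to pair them. With the replicate number as a block, 2197 genes were called, 4 rather than 7 cell cycle genes rose and 3 rather than 9 glycolysis genes rose. Adding 32 before taking logarithms, an alternative for linear values, did not apply to log2 values and was not run. With shared probes left out, fewer members of each list were measured, and 1 of 15 clock genes, 4 of 17 p53 genes, 2 of 16 peroxisomal genes, 1 of 28 respiratory chain genes and 3 of 12 metallothionein and zinc genes rose. After quantile normalization 5 rather than 9 glycolysis genes and 3 rather than 5 peroxisomal genes rose. In that fit 15 rather than 10 cell cycle genes and 7 rather than 4 ribosome biogenesis genes fell. Over all genes 1458 rather than 1826 rose there and 1210 rather than 903 fell. With the trended robust prior 10 rather than 4 respiratory chain genes rose, and 2209 rather than 1826 of all genes.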

Other observations

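Of 13522 probe sets with several gene symbols or none, which no list or named gene uses, 324 were higher and 244 lower at 24 h than at 6 h.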
